A study of Mus musculus with 8 samples.

Results

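The comparison asks what lipopolysaccharide (LPS), a component of the outer membrane of Gram-negative bacteria, changed in mouse macrophages that were receiving IL-4 and IL-13 at the same labelled time of 6 h. It sets the 2 arrays labelled LPS/IL4/IL13 against the 2 labelled IL4/IL13, which makes 4 of the 8 samples in the series, and it was described over all 19938 genes that had a probe set with exactly 1 gene symbol. The other 4 arrays, 2 of untreated cells and 2 of cells given IFN gamma and LPS, shared the fit and served as a reference. All 4 groups were bone marrow-derived macrophages (BMDM), phagocytes grown in culture from bone marrow progenitors, collected at 6 h, and the stated purpose was to define the gene expression signature of each activation state. The strain, sex and age of the mice, the doses and the order of addition are not given in the labels. Each group was collected at 6 h only, so a rise or fall below compares groups and follows no culture over time. No group received LPS alone, so the comparison shows LPS on top of IL-4 and IL-13 and not LPS by itself.

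LPS is detected by Toll-like receptor 4 (TLR4) with its partners CD14 and MD-2. The adaptor MyD88 then leads to NF-kB and AP-1, which switch on inflammatory cytokine genes, and the adaptor TRIF leads to IRF3, type I interferon and the interferon-stimulated genes. IL-4 and IL-13 act through receptors that contain the IL-4 receptor alpha chain, and their signal phosphorylates the transcription factor STAT6, which turns on a separate macrophage program known for arginase, the secreted protein RELM-alpha, lectin receptors and chemokines that attract eosinophils and T helper cells.

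The deposited values were used as log2 signal, in which a difference of 1 is a 2-fold change. Over all genes, which are no independent replicates, the replicate arrays of the groups compared had correlations of 0.9961 (without LPS) and 0.9941 (with it). A principal component analysis of the 8 arrays gave a first component that held 76.9% of the variance and a second that held 10.9%. The labels do not say that the replicates were separate cultures or animals. The p-values therefore measure only how far these samples spread, which may be technical. Defining macrophage genes gave high signal on every array of the groups compared. Csf1r, the receptor for macrophage colony-stimulating factor, read 12.85 and 12.91 with IL-4/IL-13 and 12.12 and 12.11 with LPS added, Adgre1, which encodes the surface marker F4/80, read 12.81 and 12.86 and then 12.63 and 12.57, and Lyz2, which encodes lysozyme, read 13.20 and 13.17 and then 13.03 and 13.05.

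Adding LPS to IL-4/IL-13 raised 2815 genes, 14.1% of the 19938, and lowered 4504, 22.6%, so that 36.7% of genes were called at an adjusted p under 0.05 (limma, Benjamini-Hochberg over all 19938 genes). The median log2 change over all genes was -0.02 and the median standard error of a change was 0.118. Called changes of at least 2-fold numbered 1066 higher (5.35%) and 1162 lower (5.83%). The largest changes ran upward, with 79 genes at least 16-fold higher and 7 at least 16-fold lower. The 2 groups of arrays did not overlap for 12011 genes, 60.2%. Genes named below for large changes were picked by size, so a lack of overlap given for them adds no support. Each error given below is the standard error (SE) from the limma fit with n = 2 arrays in each group.

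**Figure D1:**
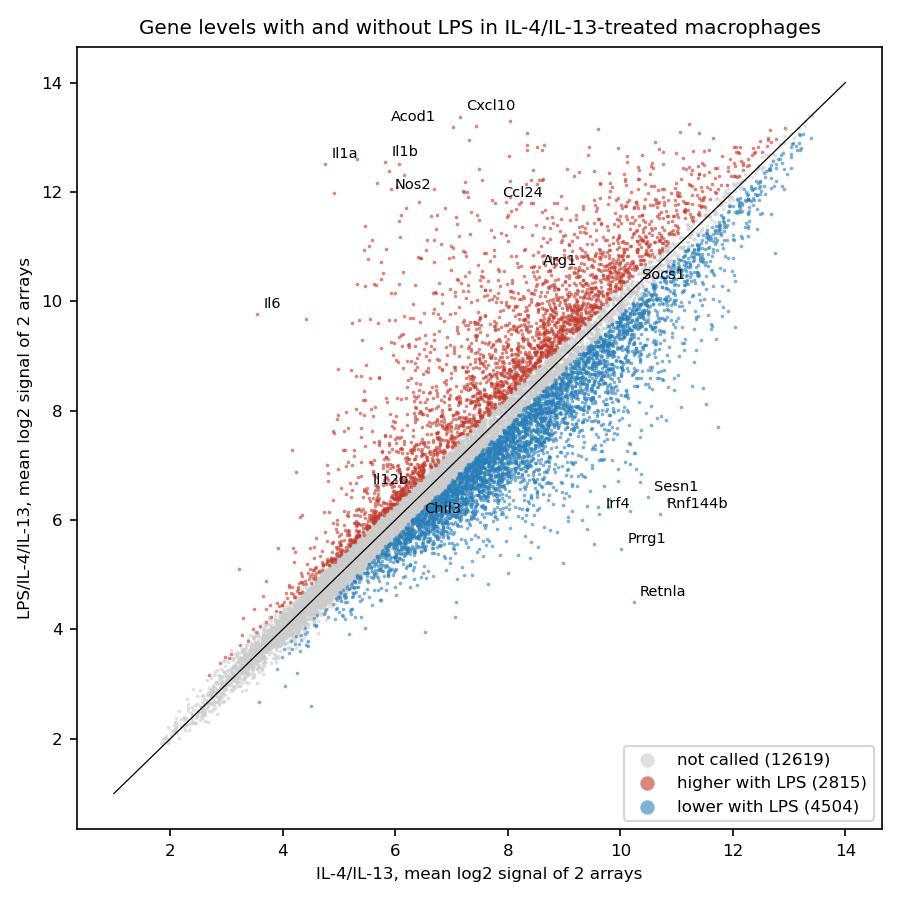
Mean log2 signal of each gene over the 2 LPS/IL-4/IL-13 arrays (vertical) against its mean over the 2 IL-4/IL-13 arrays (horizontal), with 1 point a gene and the line of equal level. The 2815 genes called higher reach far above the line, to Il1a at a log2 change of 7.75, while the 4504 called lower mostly lie nearer to it, with Retnla the lowest at -5.75.

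The steepest rise was in Il1a, which encodes the alarm cytokine interleukin 1 alpha. It read 5.06 and 4.45 on the IL-4/IL-13 arrays and 12.54 and 12.48 on the LPS/IL-4/IL-13 arrays, a log2 change of 7.75 ± 0.15 or 216-fold (limma adjusted p = 5.07e-12). Both LPS arrays lay far above both IL-4/IL-13 arrays. The 14 genes that followed by size were Slamf1, a self-binding immune receptor (7.29 ± 0.12), Cd69, an early activation marker (7.08 ± 0.10), Il1b (6.71 ± 0.11), Nos2 (6.50 ± 0.10), Clec4e, which encodes the glycolipid receptor Mincle (6.49 ± 0.13), Cxcl9 (6.44 ± 0.15), Il6 (6.22 ± 0.14), Cxcl10 (6.22 ± 0.09), Cxcl2 (6.15 ± 0.15), Acod1, which makes itaconate (6.15 ± 0.14), Saa3, an acute-phase serum amyloid (6.13 ± 0.13), Edn1, the precursor of endothelin 1 (6.05 ± 0.09), Lipg, endothelial lipase (5.92 ± 0.15), and Ptgs2, cyclooxygenase 2 (5.76 ± 0.09). All are log2 changes, and a lack of overlap between the groups was a condition for a gene to be listed here.

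The deepest fall was in Retnla, which encodes RELM-alpha, a secreted protein known as a marker of IL-4-treated mouse macrophages. It read 10.15 and 10.33 with IL-4/IL-13 and 4.39 and 4.60 with LPS added, a log2 change of -5.75 ± 0.19 or 53.6-fold down (limma adjusted p = 2.17e-10). Untreated cells read 4.67 and 4.70, so the arrays with LPS added lay at about the level of cells that had received nothing. Next were Rnf144b, a ubiquitin ligase, at -4.59 ± 0.13, and Prrg1, a membrane protein with a Gla domain, at -4.55 ± 0.11. Gpr155, a lysosomal membrane protein, changed by -4.48 ± 0.13, and Sesn1, a stress-induced sestrin that restrains mTORC1, by -4.07 ± 0.15. The remaining 10 of the 15 lowest genes were Gprc5c (-4.03 ± 0.08), the sialyltransferase gene St6gal1 (-4.01 ± 0.13), the peroxisomal fatty acid transporter gene Abcd2 (-3.97 ± 0.12), the Ras activator gene Rasgrp3 (-3.77 ± 0.10), Tbc1d8 (-3.65 ± 0.09), the Rab regulator gene Tbc1d4 (-3.56 ± 0.10), Tifab (-3.54 ± 0.11), the beta-arrestin gene Arrb1 (-3.52 ± 0.11), the transcription factor gene Irf4 (-3.51 ± 0.15) and the urea transporter gene Slc14a1 (-3.42 ± 0.10). IL-4/IL-13 alone had raised some of these genes and lowered others. Against untreated cells, in a comparison that shares the IL-4/IL-13 arrays, the log2 change was 3.06 ± 0.15 for Irf4, 2.81 ± 0.10 for Slc14a1 and 2.65 ± 0.11 for Prrg1, but -1.03 ± 0.11 for Arrb1 and -1.05 ± 0.10 for Rasgrp3.

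Genes were grouped into 28 lists by function. The lists were chosen with earlier results of these data known, and their counts are read beside the 14.1% and 22.6% of all genes called higher and lower.

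**Figure D2:**
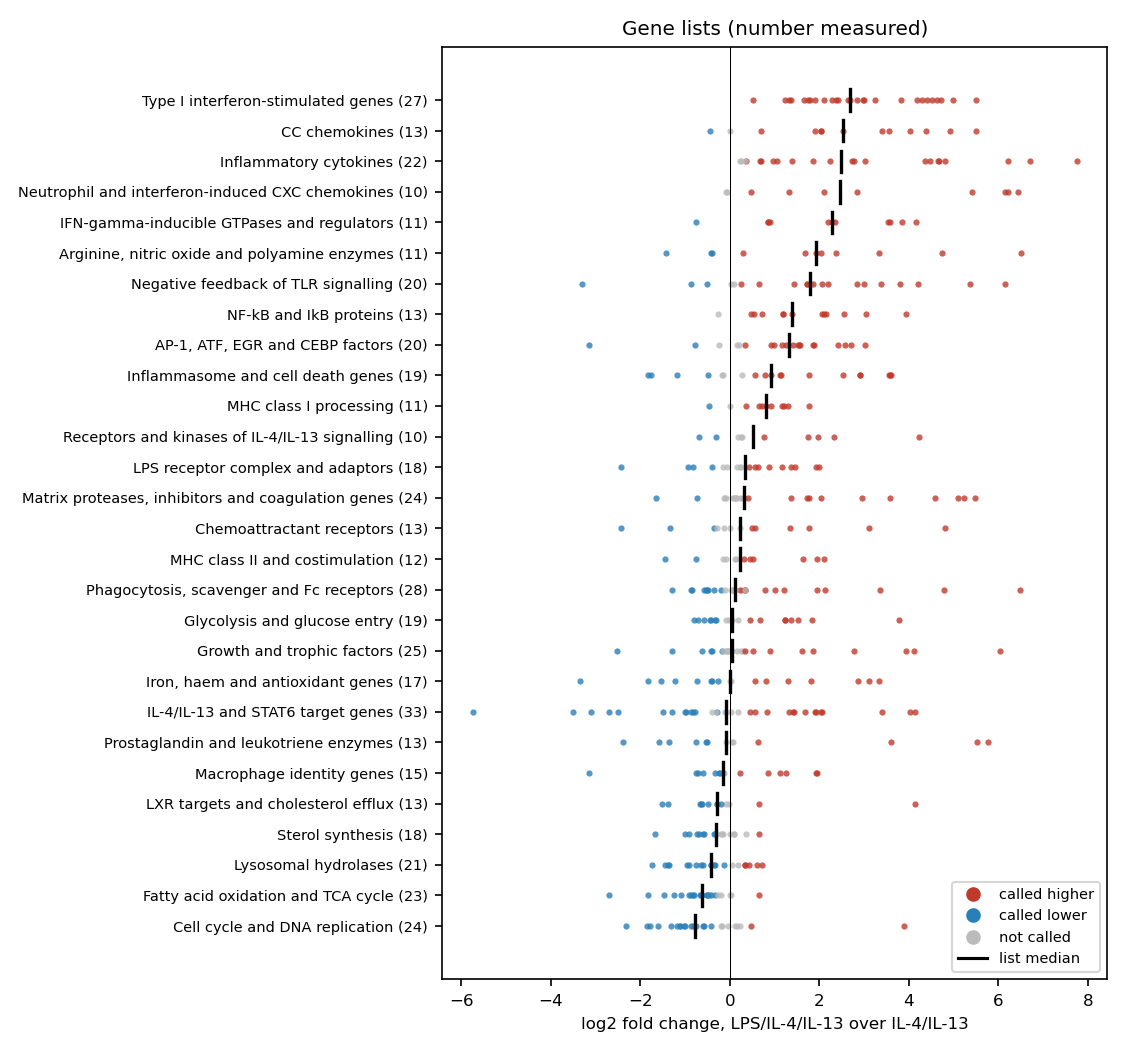
Log2 change of every measured member of the 28 lists (points) with the median of each list (black bar), ordered by that median, with the number measured in brackets. Red points were called higher, blue lower and grey not called, and the medians run from 2.68 for the type I interferon-stimulated genes to -0.79 for the cell cycle genes.

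Among the LPS receptor complex and its adaptors, 9 of 18 measured genes rose and 4 fell, with a median log2 change of 0.35. Cd14, the co-receptor that hands LPS to TLR4, read 9.93 and 9.91 with IL-4/IL-13 and 11.96 and 11.73 with LPS added, a log2 change of 1.93 ± 0.08. The IL-4/IL-13 arrays were the low ones, since untreated cells read 11.34 and 11.34. Irak2, a kinase that prolongs MyD88 signalling, rose by 2.0 ± 0.08, Tlr2, a receptor for bacterial lipopeptides, by 1.45 ± 0.10, the adaptor gene Myd88 by 1.36 ± 0.08, and Irak3, an inhibitory member of the IRAK family, by 1.16 ± 0.08 on the log2 scale. Ticam2, the bridging adaptor (TRAM) that the TRIF branch needs, went the other way, from 8.92 and 8.99 to 6.60 and 6.43, a log2 change of -2.44 ± 0.10, and Tab1 (-0.94 ± 0.12), Irak1 (-0.82 ± 0.09) and Ly86 (-0.40 ± 0.05) also fell. Tlr4 itself did not pass the test at 0.26 ± 0.10 (limma adjusted p = 0.0681), and neither did Ly96, which encodes MD-2, at 0.23 ± 0.09 (limma adjusted p = 0.0805). Tlr4 was called higher in 3 other settings, among them without the second LPS/IL-4/IL-13 array, and Ly96 in 4, among them without the first array of either treatment.

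NF-kB and its inhibitors rose nearly as a block, with 12 of 13 measured genes higher, none lower (limma, with 1 at an unadjusted p under 0.05) and a median log2 change of 1.39. Nfkbiz, which encodes the nuclear co-activator I-kappa-B-zeta needed for Il6 transcription, read 7.10 and 6.97 and rose to 10.94 and 11.01, a log2 change of 3.94 ± 0.08. The inhibitor genes Nfkbie (3.04 ± 0.10) and Nfkbia (2.56 ± 0.07), the kinase gene Ikbke (2.15 ± 0.09) and the co-activator gene Bcl3 (2.10 ± 0.09) followed. Of the subunit genes, Nfkb2 changed by 2.06 ± 0.08, Relb by 1.39 ± 0.09, Rela by 0.72 ± 0.08 and Rel by 0.55 ± 0.06. Ikbkg, the regulatory subunit of the I-kappa-B kinase, did not pass at -0.27 ± 0.11, although it was called lower when the second LPS/IL-4/IL-13 array was left out.

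Factors of the AP-1, ATF, EGR and C/EBP families gave 15 higher and 2 lower of 20, with a median log2 change of 1.33. The highest were Batf2 (3.02 ± 0.12), Batf (2.72 ± 0.10), Cebpb (2.58 ± 0.10), Junb (2.43 ± 0.10) and Maff (1.88 ± 0.09). Cebpb and Cebpa, related factors that drive inflammatory and myeloid lineage genes, moved apart. Cebpa read 9.39 and 9.42 with IL-4/IL-13 and 6.29 and 6.24 with LPS added, a log2 change of -3.14 ± 0.11. Egr2, a factor that IL-4 induces, fell by 0.79 on the log2 scale but stayed above untreated cells, at 10.36 and 10.54 against 8.42 and 8.57.

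Of the 22 inflammatory cytokine genes, all of them measured, 19 rose and none fell (limma, with 0 lower also at an unadjusted p under 0.05), and the median log2 change was 2.48. Il6, the fever and acute-phase cytokine, read 3.52 and 3.57 with IL-4/IL-13 and 10.02 and 9.52 with LPS added, a 74.8-fold rise. Il1b, the inflammasome-processed interleukin 1 beta, read 5.62 and 6.03 and then 12.54 and 12.54, or 105-fold. Tnf, the early inflammatory cytokine, read 7.64 and 7.46 and then 12.15 and 12.30, or 25.6-fold. In each of these the pair of LPS arrays stood several log2 units above the pair without it. Il10, the main anti-inflammatory cytokine of macrophages, rose with them, from 7.37 and 7.04 to 11.94 and 12.10, a log2 change of 4.82 ± 0.14, and Il27 changed by 4.47 ± 0.12 and the costimulatory ligand gene Tnfsf9 by 4.36 ± 0.14. Il19, a relative of Il10, rose from 5.64 and 5.66 to 10.37 and 10.24, or 25.2-fold.

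Il12b, the p40 subunit of the T helper 1 cytokine IL-12 and of IL-23, was a small riser in this list. It read 5.55 and 5.41 with IL-4/IL-13 and 6.49 and 6.59 with LPS added, a log2 change of 1.06 ± 0.10 or 2.08-fold (limma adjusted p = 2.65e-06). The groups did not overlap, but the IFN gamma/LPS arrays read 12.29 and 12.31. The partner subunit gene Il12a changed by 0.97 ± 0.12. Csf2, Lif and Ifnb1 did not pass the test, at 0.23 ± 0.11, 0.26 ± 0.11 and 0.33 ± 0.12, of which Ifnb1, the type I interferon beta, passed as higher in 5 other settings and Lif in 1.

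**Figure D3:**
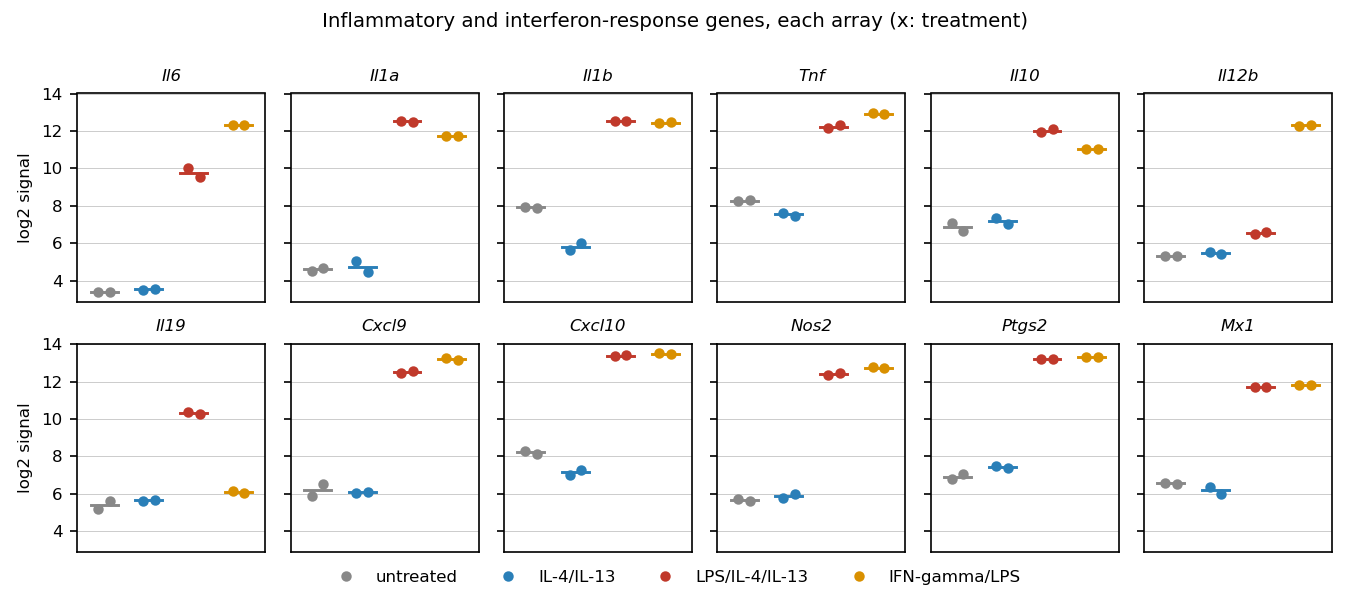
Log2 signal of 12 inflammatory and interferon-response genes on each of the 8 arrays (points), with the mean of each treatment (short line) and treatments side by side on the horizontal axis. The LPS/IL-4/IL-13 arrays of Il6 read 10.02 and 9.52 and those of Il12b read 6.49 and 6.59, against 12.30 and 12.30 and 12.29 and 12.31 with IFN gamma/LPS.

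The promoter of Il1a, the highest riser of the cytokine list, and that of Rsad2 (viperin), the highest riser among the interferon-stimulated genes with a promoter in the table, are shown here as the start regions of the inflammatory and the interferon arm of the response. They are RefSeq sequences of GRCm38.p6 from 250 bases before to 50 bases after the gene start, both on the minus strand, at chr2:129309923-129310222 (Il1a) and chr12:26456403-26456702 (Rsad2). Capitals in the Rsad2 sequence mark a match to the interferon-stimulated response element (here GAAA, any 2 bases and GAAA again), found on the other strand as TTTCATTTTC with its first base 120 bases before the gene start. The Il1a window held no match to any of the 3 motifs searched.
Il1a: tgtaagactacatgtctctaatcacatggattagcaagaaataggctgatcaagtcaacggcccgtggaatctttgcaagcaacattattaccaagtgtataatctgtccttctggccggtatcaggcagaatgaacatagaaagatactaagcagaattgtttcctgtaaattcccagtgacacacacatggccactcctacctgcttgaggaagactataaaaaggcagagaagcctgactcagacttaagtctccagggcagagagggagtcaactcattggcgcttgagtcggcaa
Rsad2: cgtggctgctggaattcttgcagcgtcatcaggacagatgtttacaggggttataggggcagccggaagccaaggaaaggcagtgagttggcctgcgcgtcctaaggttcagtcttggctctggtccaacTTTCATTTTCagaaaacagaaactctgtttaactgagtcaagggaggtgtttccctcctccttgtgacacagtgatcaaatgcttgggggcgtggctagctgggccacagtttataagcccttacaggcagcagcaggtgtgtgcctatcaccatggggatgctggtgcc

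Chemokine genes rose in both classes. Of the 10 CXC chemokines, 8 rose and none fell (limma, with 0 lower also at an unadjusted p under 0.05), with a median log2 change of 2.47. Cxcl10, which attracts activated T cells, read 7.03 and 7.27 with IL-4/IL-13 and 13.35 and 13.40 with LPS added. Its relative Cxcl9 read 6.07 and 6.08 and then 12.48 and 12.55. The neutrophil attractants Cxcl2, Cxcl3 and Cxcl1 changed by 6.15 ± 0.15, 2.85 ± 0.15 and 2.10 ± 0.11, and Cxcl11 by 5.41 ± 0.14. Cxcl12 (-0.07 ± 0.10) and Cxcl14 (-0.07 ± 0.13) did not pass the test.

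Of the 13 CC chemokines, 11 rose and 1 fell, with a median log2 change of 2.54. Ccl12 (5.50 ± 0.16), Ccl4 (4.92 ± 0.09), Ccl8 (4.38 ± 0.14), Ccl24 (4.02 ± 0.11) and Ccl5 (3.55 ± 0.06) led. Ccl24, the eosinophil attractant eotaxin 2, is known as an IL-4-induced gene. It read 5.76 and 5.54 in untreated cells, 7.82 and 7.74 with IL-4/IL-13 and 11.90 and 11.70 with LPS added. Each of these pairs lay above the one before. Ccl2 and Ccl7, which attract monocytes, were higher with IL-4/IL-13 than in untreated cells (log2 changes of 2.37 ± 0.13 and 4.13 ± 0.08). With LPS added they were higher again, by 2.54 ± 0.13 and 2.04 ± 0.08. The only called fall was in Ccl6, at -0.43 ± 0.07.

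Chemoattractant receptor genes were mixed, with 6 higher and 3 lower of 13 measured and a median log2 change of 0.24. Ccrl2, a decoy-like receptor that binds chemerin, changed by 4.82 ± 0.09, Ccr1 by 3.11 ± 0.15 and the purinergic receptor gene P2ry13 by 1.78 ± 0.09. Ccr2, the receptor for CCL2, read 6.67 and 6.46 with IL-4/IL-13, 8.11 and 7.72 with LPS added and 8.71 and 8.72 in untreated cells. With LPS added it therefore read between the IL-4/IL-13 arrays and the untreated arrays. Cxcr4, the CXCL12 receptor, fell by 2.42 on the log2 scale and Cmklr1, the signalling receptor for chemerin, by 1.34. The smaller rises of Ccr7 (0.57 ± 0.13) and Cxcr2 (0.49 ± 0.15) were not called when the first or the second IL-4/IL-13 array, in that order, was left out, and Cxcr2 also lost its call without either LPS/IL-4/IL-13 array.

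Of 20 genes for negative feedback on Toll-like receptor signalling, 15 rose and 3 fell, with a median log2 change of 1.79. Acod1 read 7.17 and 6.90 and then 13.19 and 13.18, Socs3, an inhibitor of cytokine receptor kinases, 6.71 and 6.66 and then 12.12 and 11.99, and Il1rn, the interleukin 1 receptor antagonist, 8.55 and 8.75 and then 12.84 and 12.88. These were increases of 71-fold, 41.4-fold and 18.5-fold. Tnfaip3, which encodes the ubiquitin editing enzyme A20, changed by 3.81 ± 0.09, and the phosphatase gene Dusp1 by 3.37 ± 0.08. Pdcd4 fell from 9.36 and 9.26 to 5.89 and 6.12, a log2 change of -3.31 ± 0.10. Socs1, which IL-4/IL-13 had raised by 3.74 ± 0.12 over untreated cells, read 10.28 and 10.28 and 10.18 and 10.42 and did not pass the test at 0.02 ± 0.12, and its relative Socs2 fell by 0.85.

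All 27 measured type I interferon-stimulated genes of 30 listed rose, with a median log2 change of 2.68. Mx1, an antiviral GTPase, read 6.39 and 6.0 with IL-4/IL-13 and 11.69 and 11.72 with LPS added, a rise of 45.6-fold. Its relative Mx2 rose 31.9-fold. Rsad2, whose promoter is shown above, read 8.43 and 8.27 and then 13.08 and 13.08. In none of these did the groups overlap. Oasl1 (4.64 ± 0.08), Ifit2 (4.53 ± 0.10) and the interferon brake gene Usp18 (4.41 ± 0.11) came next, and the smallest rise of the list was that of Irf9, a subunit of the interferon-activated factor ISGF3, at 0.52 ± 0.09. Interferon beta itself, as given above, was not called.

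The GTPases and regulators known for induction by IFN gamma, which no cell in this comparison received, gave 10 higher and 1 lower of 11 measured, with a median log2 change of 2.29. Gbp5 (4.16 ± 0.09), Gbp4 (3.85 ± 0.15), Gbp3 (3.58 ± 0.09) and Iigp1 (3.54 ± 0.12), which attack the vacuoles of intracellular pathogens, rose most. Irf1, an early transcription factor of the interferon response, changed by 0.85 ± 0.08, Irf8 by 0.84 ± 0.06 and Cd274, which encodes PD-L1, by 2.29 ± 0.08. Ciita, the master regulator of class II antigen presentation, fell by 0.74 on the log2 scale.

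In the IL-4/IL-13 pathway, Il13ra1 and Il4ra rose while Stat6 fell. Of 10 measured genes for receptors and their signalling, 5 rose and 2 fell, with a median log2 change of 0.52. Il13ra1, the chain that pairs with the IL-4 receptor to bind IL-13, read 7.58 and 7.43 in untreated cells, 6.08 and 6.07 with IL-4/IL-13 and 10.43 and 10.19 with LPS added, a rise of 18.8-fold over IL-4/IL-13. Il4ra, the shared signalling chain, read 10.71 and 10.80 and then 12.69 and 12.76, a log2 change of 1.97 ± 0.06. The lowest LPS array of either gene was above the highest IL-4/IL-13 array. Jak2 changed by 2.33 ± 0.10, Stat3 by 1.75 ± 0.07 and Jak1 by 0.76 ± 0.08. Stat6 read 10.25 and 10.20 and then 9.52 and 9.57 (-0.68 ± 0.07), and Ptpn6, the phosphatase SHP-1, changed by -0.31 ± 0.07. The decoy receptor gene Il13ra2 (0.28 ± 0.14), the adaptor gene Irs2 (0.25 ± 0.14) and Tyk2 (0.18 ± 0.09) did not pass, although each was called higher in 1 other setting, which for Irs2 was without the first LPS/IL-4/IL-13 array.

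The genes known as targets of IL-4/IL-13 and STAT6 did not move together: of 33 measured, 14 rose, 13 fell and 6 were not called, with a median log2 change of -0.07 beside -0.02 for all genes. IFN gamma/LPS, without IL-4 or IL-13, raised 16 of the 33 and lowered 8 against untreated cells. Of all genes it raised 23.6% and lowered 28.4%. IL-4/IL-13 alone raised 7.83% and lowered 12.3% of all genes against untreated cells. Its values are given beside those of the main comparison and share the IL-4/IL-13 arrays with it, so an array that reads high raises the former and lowers the latter.

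Arg1, the arginase that is the classical marker of IL-4-treated mouse macrophages, was in the rising set. It read 5.0 and 5.14 in untreated cells, 8.58 and 8.46 with IL-4/IL-13, 10.72 and 10.38 with LPS added and 5.37 and 5.45 with IFN gamma/LPS. The LPS/IL-4/IL-13 arrays were thus the highest of the 4 groups, and the log2 change for the addition of LPS was 2.03 ± 0.12 or 4.08-fold (limma adjusted p = 5.27e-08). Slc7a2, the cationic amino acid transporter that supplies arginine, read 6.28 and 6.14 in untreated cells, 10.58 and 10.52 with IL-4/IL-13 and 12.51 and 12.43 with LPS added, a further log2 change of 1.92 ± 0.08. Ch25h, cholesterol 25-hydroxylase, rose from 7.75 and 7.68 to 11.76 and 11.94, or 17.6-fold. The T cell attractants Ccl22 and Ccl17 changed by 3.40 ± 0.10 and 1.91 ± 0.17, and the transglutaminase gene Tgm2 by 2.06 ± 0.08. Pdcd1lg2, which encodes PD-L2, read 4.70 and 4.98 in untreated cells, had a mean of 10.06 ± 0.08 (SD, n = 2 arrays) with IL-4/IL-13 and read 10.63 and 10.61 with LPS added, a log2 change of 0.56 ± 0.11 on top of the 5.22 ± 0.11 that IL-4/IL-13 gave over untreated cells.

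The falling set held Retnla, described above, Irf4, Clec10a, Ppargc1b and Mgl2. Irf4, a factor that STAT6 induces, read 6.76 and 6.37 in untreated cells, 9.65 and 9.59 with IL-4/IL-13 and 6.26 and 5.96 with LPS added. Of the galactose-binding lectin genes, Clec10a read 8.96 and 8.78 with IL-4/IL-13 and 5.95 and 5.61 with LPS added (-3.09 ± 0.15), and Mgl2 read 8.62 and 8.25 and then 6.03 and 5.83 (-2.50 ± 0.14). Ppargc1b, a co-activator of mitochondrial oxidative genes, read 6.35 and 6.36 in untreated cells, 9.04 and 8.91 with IL-4/IL-13 and 6.35 and 6.19 with LPS added. In Irf4, Ppargc1b and Retnla the arrays with LPS added read within 1 log2 unit of untreated cells. Klf4 (-0.98 ± 0.12), the transcription factor gene Pparg (-1.28 ± 0.07) and Rasgrp1 (-1.0 ± 0.12) also fell, and Rasgrp1 still read 10.40 and 10.26 against 5.24 and 5.63 in untreated cells.

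Among the genes that moved little, Chil3, the chitinase-like protein Ym1 and another marker of IL-4-treated mouse macrophages, read 6.68 and 6.14 with IL-4/IL-13 and 6.17 and 5.86 with LPS added. Chil3 lay near the medians over all genes of the IL-4/IL-13 arrays, 6.33 and 6.37, and so was not a bright gene there. Its change of -0.40 ± 0.17 did not pass the test (limma adjusted p = 0.0984) and was called lower in 2 other settings, without the second IL-4/IL-13 array and with the replicate number as a block (limma adjusted p = 0.0356). Mrc1, the mannose receptor CD206, changed by -0.28 ± 0.08, a call that was lost without the second IL-4/IL-13 array, without the second LPS/IL-4/IL-13 array and with a variance model without a trend. Alox15 (-0.07 ± 0.14), Batf3 (0.18 ± 0.10) and Fn1 (-0.12 ± 0.10) did not pass, and Batf3 was called higher after quantile normalization.

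**Figure D4:**
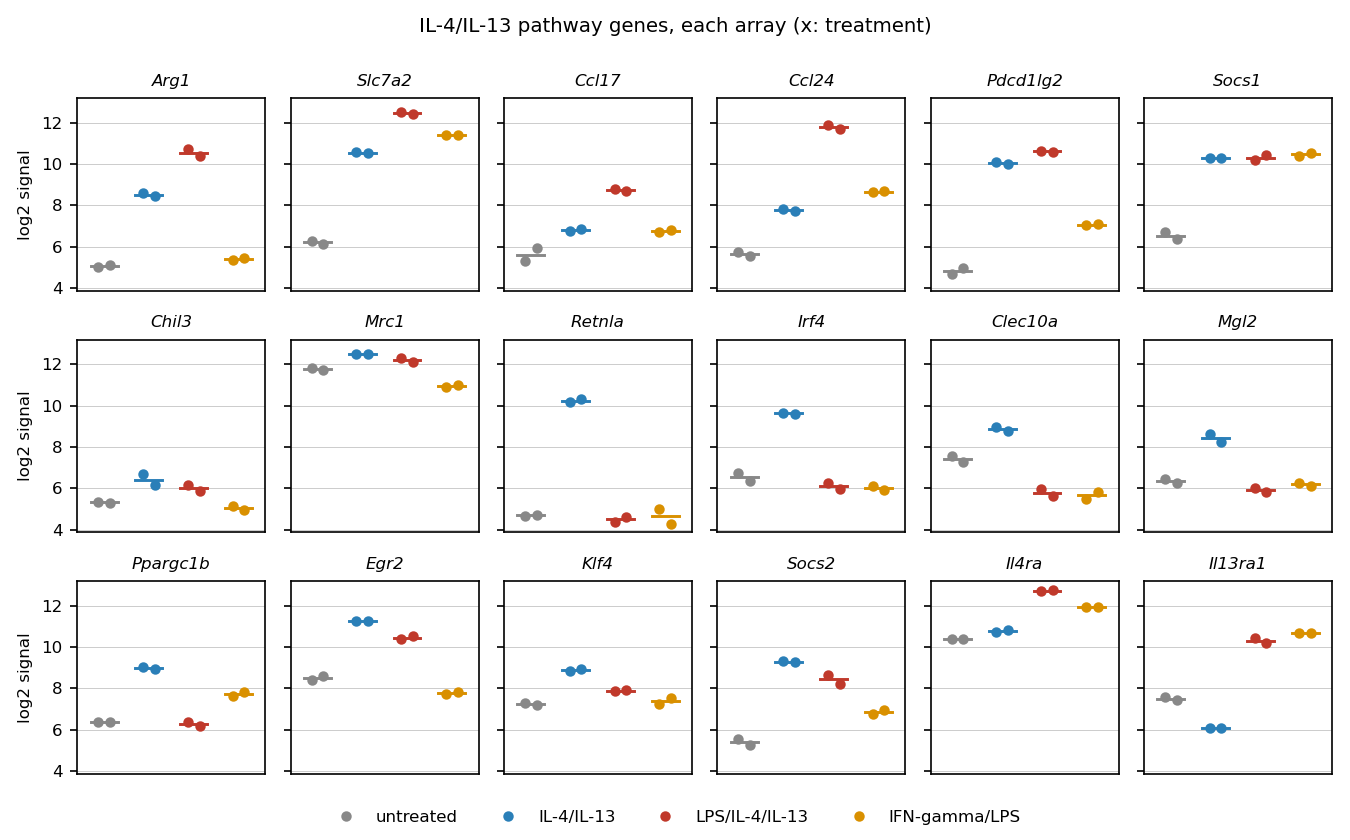
Log2 signal of 18 genes of the IL-4/IL-13 pathway on each array (points), with the mean of each treatment (short line) and treatments side by side on the horizontal axis. Arg1 is highest on the LPS/IL-4/IL-13 arrays (10.72 and 10.38), whereas Retnla reads 10.15 and 10.33 with IL-4/IL-13 and 4.39 and 4.60 with LPS added.

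The promoters of Retnla, the largest faller of the STAT6 target list, and of Ch25h, its highest riser, are shown because the genes carry the same list name and moved in opposite directions. They cover 250 bases before to 50 bases after the gene start in GRCm38.p6, at chr16:48842359-48842658 on the plus strand (Retnla) and chr19:34475099-34475398 on the minus strand (Ch25h), from RefSeq. Capitals in the Retnla sequence mark TTCACAAGAA, a match to the STAT6 element (here TTC, any 4 bases and GAA) whose first base lies 145 bases before the gene start. The Ch25h window held no match to the 3 motifs.
Retnla: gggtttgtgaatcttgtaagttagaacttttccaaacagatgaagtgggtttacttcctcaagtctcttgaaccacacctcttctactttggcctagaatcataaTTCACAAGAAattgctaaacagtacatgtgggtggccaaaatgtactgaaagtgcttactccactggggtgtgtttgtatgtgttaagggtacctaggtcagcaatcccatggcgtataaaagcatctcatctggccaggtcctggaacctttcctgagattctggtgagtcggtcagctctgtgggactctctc
Ch25h: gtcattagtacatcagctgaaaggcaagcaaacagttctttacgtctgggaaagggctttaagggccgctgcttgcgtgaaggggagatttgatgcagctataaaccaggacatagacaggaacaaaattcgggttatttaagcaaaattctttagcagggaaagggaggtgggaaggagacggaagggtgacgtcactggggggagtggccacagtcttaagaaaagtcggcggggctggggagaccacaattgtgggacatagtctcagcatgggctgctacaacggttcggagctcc

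Motifs were counted on both strands of the promoters of 15563 tested genes. The NF-kB consensus was found in 4.74% of them, the interferon-stimulated response element in 3.31% and the STAT6 element in 6.25%. Of the 311 promoters whose genes were called and at least 4-fold higher, the shares were 11.6%, 13.5% and 6.43% in that order. Of the 147 whose genes were called and at least 4-fold lower, they were 4.08%, 2.04% and 7.48%. The response element stood in 10 of 20 promoters of the interferon-stimulated list, 1 of 15 of the cytokine list and 1 of 21 of the STAT6 target list. In the same order of lists, the NF-kB consensus stood in 2, 5 and 2 promoters. The STAT6 element stood in 4, 3 and 5, or 20%, 20% and 23.8%, so it was not particular to the STAT6 target list. The patterns are textbook consensus elements. These counts describe letters in a short window and say nothing of binding.

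Enzymes of arginine, nitric oxide and polyamine metabolism gave 8 higher and 3 lower of 11 measured, with a median log2 change of 1.92. Nos2, the inducible nitric oxide synthase that competes with arginase for arginine, read 5.76 and 6.01 with IL-4/IL-13 and 12.34 and 12.44 with LPS added, a 90.8-fold rise. Both Nos2 and Arg1 were therefore raised on the same arrays. Arg2, the mitochondrial arginase, changed by 4.74 ± 0.16, Gch1, which makes the Nos2 cofactor, by 3.33 ± 0.12, and Odc1, which starts polyamine synthesis, by 2.38 ± 0.09. The spermidine synthase gene Srm fell by 1.44 on the log2 scale. In whole cultures a change in the share of cells that express a gene and a change in its RNA per cell cannot be told apart, so the arrays do not show whether Nos2 and Arg1 rose in the same cells.

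Eicosanoid genes changed in both directions, with 4 higher and 6 lower of 13 measured and a median log2 change of -0.08. Ptgs2 read 7.51 and 7.36 and then 13.20 and 13.20, Ptges, the inducible prostaglandin E synthase, 5.44 and 5.74 and then 11.09 and 11.16, and Pla2g4a, the phospholipase that releases arachidonic acid, 8.18 and 7.92 and then 11.81 and 11.48. None of these groups overlapped, and the remaining riser was the prostaglandin E synthase gene Ptges3 (0.64 ± 0.15). Hpgd, which degrades prostaglandins, fell by 2.39 on the log2 scale, the thromboxane synthase gene Tbxas1 by 1.57, and the leukotriene genes Lta4h, Alox5ap and Ltc4s by 1.36, 0.76 and 0.54.

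Class I antigen processing rose, with 9 higher and 1 lower of 11 and a median log2 change of 0.81. The peptide transporter genes Tap1 and Tap2 changed by 1.77 ± 0.07 and 1.30 ± 0.15, the class I regulator gene Nlrc5 by 1.22 ± 0.10 and the immunoproteasome gene Psmb8 by 1.17 ± 0.10, while B2m did not pass at 0.0 ± 0.05. The fall of the trimming peptidase gene Erap1 (-0.46 ± 0.12) was not called without the first IL-4/IL-13 array or without the second LPS/IL-4/IL-13 array. Of 12 genes for class II presentation and costimulation, 6 rose and 2 fell, with a median log2 change of 0.23. The costimulatory genes Cd40 (2.10 ± 0.07), Tnfsf4 (1.94 ± 0.15) and Cd86 (1.63 ± 0.10) rose, H2-DMa, which loads peptide on class II, fell from 9.86 and 9.90 to 8.48 and 8.37 (-1.46 ± 0.11), and the class II chain genes H2-Aa and H2-Eb1 did not pass.

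Receptors for uptake changed in both directions, with 11 higher and 9 lower of 28 measured and a median log2 change of 0.11. Clec4e rose 89.6-fold, and the scavenger receptor genes Olr1 and Msr1 changed by 4.79 ± 0.10 and 3.35 ± 0.07. The activating Fc receptor genes Fcgr4 and Fcgr1 changed by 2.12 ± 0.06 and 1.96 ± 0.06. Gas6, a ligand that bridges dying cells to TAM receptors, fell by 1.28 on the log2 scale, the lipid sensor gene Trem2 by 0.88, the scavenger receptor gene Stab1 by 0.84 and the complement gene C1qa by 0.53. The TAM receptor genes Mertk and Axl went up by 0.78 ± 0.08 and 1.0 ± 0.09. Cd36 (0.04 ± 0.07) and Fcer1g (0.04 ± 0.05) did not pass.

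Lysosomal genes mostly fell, with 14 lower and 5 higher of 21 measured and a median log2 change of -0.42, and the count higher was 3 after quantile normalization. Atp6v0d2, a proton pump subunit, fell by 1.75 on the log2 scale, Tfeb, the factor that drives lysosomal genes, by 1.45, and the hydrolase genes Gaa, Gusb and Hexa by 1.37, 1.36 and 0.96. The risers were Gla (0.72 ± 0.06), Tcirg1 (0.60 ± 0.06), Npc2 (0.42 ± 0.07), Ctsz (0.34 ± 0.06) and Ctsl (0.34 ± 0.06), and the calls of Npc2 and Ctsl are those lost after quantile normalization. Macrophage identity genes gave 6 higher and 8 lower of 15, with a median log2 change of -0.14, and 5 lower with a variance model without a trend. Csf1r fell by 0.77 and Aif1 by 0.71 on the log2 scale, while the lineage factor gene Maf changed by 1.25 ± 0.06.

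For fatty acid oxidation and the tricarboxylic acid cycle, 17 of 23 measured genes fell and 1 rose, with a median log2 change of -0.62. Hadh, which oxidises fatty acid chains, read 9.84 and 9.90 with IL-4/IL-13 and 8.24 and 7.86 with LPS added, and Cpt1a, the gate for fatty acid entry into mitochondria, read 10.48 and 10.46 and then 9.08 and 8.93. Their log2 changes were -1.82 ± 0.12 and -1.47 ± 0.08, and no LPS array reached the level of an IL-4/IL-13 array. Acadm (-1.24 ± 0.13) and Hadhb (-1.08 ± 0.11) also fell, as did the cycle enzyme genes Idh2 (-0.88 ± 0.12), Sdhb (-0.67 ± 0.10) and Fh1 (-0.62 ± 0.10), and Acadl (0.66 ± 0.11) was the riser.

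Glycolysis genes were split, with 8 higher and 7 lower of 19 and a median log2 change of 0.06. Pfkfb3, which makes the activator of phosphofructokinase, read 7.17 and 6.88 and then 10.78 and 10.85, or 13.8-fold higher. Hk3 (1.84 ± 0.08), Pfkp (1.52 ± 0.07), Hk2 (1.37 ± 0.14) and the glucose transporter gene Slc2a1 (1.24 ± 0.08) rose too. Aldoa fell by 0.58 on the log2 scale and Pgam1 by 0.34, and Ldha (-0.03 ± 0.06) and Pkm (0.06 ± 0.08) did not pass. After quantile normalization both were called lower, Ldha at -0.29 (limma adjusted p = 0.000962) and Pkm, with its sign turned, at -0.20 (limma adjusted p = 0.0446) on the log2 scale.

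Sterol synthesis gave 9 lower and 1 higher of 18, with a median log2 change of -0.30, led by Dhcr7 (-1.66 ± 0.11), which makes cholesterol in its last step, and Ebp (-0.99 ± 0.10). The riser, Sc5d (0.66 ± 0.12), was joined by Hmgcs1 (0.36 ± 0.14, not called) in 5 other settings, among them without the second LPS/IL-4/IL-13 array. Of 13 LXR target and cholesterol efflux genes, 9 fell and 2 rose, with a median log2 change of -0.29. The exporter gene Abcg1 read 11.41 and 11.50 and then 9.98 and 9.89 (-1.52 ± 0.08), and the desaturase gene Scd2 changed by -1.38 ± 0.12. The risers were Ch25h and the LXR-alpha gene Nr1h3 (0.65 ± 0.11).

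Iron, haem and antioxidant genes gave 7 higher and 8 lower of 17, with a median log2 change of 0.01. Tfrc, the transferrin receptor that imports iron, read 10.31 and 10.25 with IL-4/IL-13 and 7.10 and 6.75 with LPS added, a 10.2-fold fall. Slc40a1, the iron exporter ferroportin, read 10.09 and 10.11 in untreated cells, 6.95 and 6.86 with IL-4/IL-13 and 5.19 and 4.98 with LPS added. Among these groups the arrays with LPS added read lowest for this gene. The iron-binding lipocalin gene Lcn2 (3.12 ± 0.11), the cystine importer gene Slc7a11 (3.33 ± 0.13) and the mitochondrial dismutase gene Sod2 (2.86 ± 0.06) rose, and the glutathione synthesis genes Gclc and Gclm fell by 1.22 and 0.73 on the log2 scale.

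Of 25 measured growth and trophic factor genes, 9 rose and 6 fell, with a median log2 change of 0.04. Edn1 rose 66.3-fold, Hbegf, an EGF receptor ligand, changed by 4.11 ± 0.09, Inhba, the activin A subunit, by 3.94 ± 0.11, Osm by 2.79 ± 0.09 and Csf1 by 1.86 ± 0.09. Bmp2 read 9.44 and 9.24 with IL-4/IL-13 and 6.86 and 6.77 with LPS added, a log2 change of -2.52 ± 0.10, while IL-4/IL-13 had changed it by 0.63 ± 0.10 over untreated cells. Igf1 fell by 0.61 and Tgfb1 by 0.41 on the log2 scale. Bdnf (-0.06 ± 0.12) and Hgf (-0.06 ± 0.10) did not pass.

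Of 24 genes for matrix proteases, their inhibitors and coagulation, 12 rose and 2 fell, with a median log2 change of 0.31. The collagenase gene Mmp13 read 8.20 and 7.89 and then 13.29 and 13.29, the membrane protease gene Mmp14 5.96 and 6.20 and then 11.19 and 11.16, and the protease inhibitor gene Serpinb2 6.24 and 5.95 and then 11.66 and 11.50. Each was over 16-fold higher on the LPS arrays. Timp1, an inhibitor of these proteases, changed by 4.58 ± 0.11 and its relative Timp2 by -1.65 ± 0.08, in opposite directions. The urokinase receptor gene Plaur (3.58 ± 0.08) and the tissue factor gene F3 (2.95 ± 0.12) rose.

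Cell cycle and DNA replication genes fell, with 16 lower and 2 higher of 24 and a median log2 change of -0.79. Ccna2, which encodes cyclin A2, read 9.04 and 8.68 and then 6.71 and 6.39 (-2.31 ± 0.14), and the mitotic kinase genes Plk1 and Aurkb changed by -1.85 ± 0.15 and -1.77 ± 0.10. The replication licensing genes Mcm2, Mcm4 and Mcm3 fell by 1.0, 0.74 and 0.59 on the log2 scale. Ccnd2, a cyclin of early G1 phase, rose against the rest of the list from 7.27 and 7.40 to 11.27 and 11.18, or 14.8-fold. Mki67 (-0.20 ± 0.14) did not pass, but it was called lower without the first LPS/IL-4/IL-13 array.

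Of 19 inflammasome and cell death genes, 12 rose and 4 fell, with a median log2 change of 0.93. Nlrp3, the inflammasome sensor, read 7.76 and 7.63 and then 11.24 and 11.37, Casp4, the caspase that binds intracellular LPS, 8.38 and 8.02 and then 11.90 and 11.67, and Mlkl, the effector of necroptosis, 7.32 and 7.21 and then 11.0 and 10.64. In none of the 3 did the groups overlap. Casp1 (2.52 ± 0.10), the death receptor gene Fas (2.90 ± 0.10) and its inhibitor Cflar (2.90 ± 0.08) rose with them. Bcl2l11, which encodes the pro-death protein BIM, fell by 1.83 and the pro-survival gene Bcl2 by 1.19 on the log2 scale.

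Probe sets for microRNA genes were looked at after their values had been seen. They measure RNA from the locus and not the mature microRNA. Of 300 tested, 28 were higher and 18 lower, against 14.1% and 22.6% of all genes. At least 2-fold higher were 9 and at least 2-fold lower 5, against 5.35% and 5.83% of all genes. Each of these counts is a smaller share of the 300 than the share of all genes beside it. The mature strands of the 4 loci with the largest rises and of 2 let-7 loci that moved apart are printed from RefSeq (GRCm38.p6), 5′ to 3′, with the seed, bases 2 to 8, in capitals. They come from chr16:84714143-84714165 on the plus strand, chrX:19146307-19146329, chrX:19146901-19146923 and chr11:43374435-43374456 on the minus strand, and chr17:17830366-17830387 and chr16:77599672-77599693 on the plus strand, in the order shown.
miR-155-5p: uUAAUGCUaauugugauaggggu
miR-221-3p: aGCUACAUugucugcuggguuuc
miR-222-3p: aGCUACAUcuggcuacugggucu
miR-146a-5p: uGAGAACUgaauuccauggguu
let-7e-5p: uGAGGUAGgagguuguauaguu
let-7c-5p: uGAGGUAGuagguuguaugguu

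Mir155, a microRNA known for induction by Toll-like receptors, read 5.46 and 5.56 with IL-4/IL-13 and 10.74 and 10.79 with LPS added, a 38.2-fold rise. Mir221 and Mir222 encode strands that share the seed GCUACAU. Mir221 read 7.15 and 7.11 and then 9.93 and 9.86, and Mir222 read 6.53 and 6.51 and then 9.10 and 9.17. Mir146, named miR-146a in RefSeq and known to restrain TRAF6 and IRAK1, changed by 2.67 ± 0.17. For these 4 loci no LPS array overlapped an IL-4/IL-13 array, which also held for 60.2% of all genes. They were picked for the largest rises, so this adds no support. Mirlet7e and Mirlet7c-1 share the seed GAGGUAG, yet the first changed by 1.01 ± 0.11 and the second by -1.06 ± 0.15. Mir99a, which lies near Mirlet7c-1 on chromosome 16, read 7.77 and 7.43 in untreated cells, 10.01 and 9.78 with IL-4/IL-13 and 8.85 and 8.58 with LPS added (-1.18 ± 0.13), and Mirlet7c-1 read 6.89 and 6.56, then 8.78 and 8.51, then 7.78 and 7.39. Both were highest with IL-4/IL-13 alone of these 3 groups.

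The response to LPS in IL-4/IL-13-treated cells was set beside the IFN gamma/LPS response of untreated cells, a comparison that uses the other 4 arrays and shares none with it. These responses differ in IFN gamma as well as in IL-4 and IL-13, and the contributions of these agents cannot be told apart. The log2 changes correlated at r = 0.819 across the 19938 genes, which are not independent replicates. Against untreated cells IFN gamma/LPS raised 4701 genes (23.6%) and lowered 5656 (28.4%), with a median log2 change of 0.105 over all genes. Of the genes raised by LPS on IL-4/IL-13, 2030 were also raised by IFN gamma/LPS, which is 72.1% of the 2815 and 43.2% of the 4701, 205 were lowered and 580 were not called. Of the genes lowered, 3939 were also lowered by IFN gamma/LPS, 87.5% of the 4504 and 69.6% of the 5656, 104 were raised and 461 were not called.

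The difference between the responses was tested in the same fit. It was positive, meaning a more positive response to LPS on IL-4/IL-13, for 2634 genes (13.2%) and negative for 1370 (6.87%), so that 20.1% of genes were called. The share of calls that were positive, 65.78%, was 55.16% after quantile normalization and 73.34% after median centring. Without the first untreated array the counts fell to 1573 positive and 905 negative, and without the second IL-4/IL-13 array the positive count fell to 1737. In the IFN gamma-inducible list, named for an agent that only the IFN gamma/LPS cells received, all 11 measured genes differed negatively. The mean log2 level of the list was 7.543 and 7.562 in untreated cells and 11.51 and 11.55 with IFN gamma/LPS. With IL-4/IL-13 it was 8.59 and 8.58, and with LPS added 10.78 and 10.71, so the responses started from different levels.

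Kynu, the enzyme kynureninase of tryptophan breakdown, read 5.09 and 5.05 in untreated cells and 8.45 and 8.59 with IFN gamma/LPS, but 9.27 and 9.02 with IL-4/IL-13 and 6.70 and 6.56 with LPS added. Kynu was therefore higher with IFN gamma/LPS than in untreated cells, and lower with LPS/IL-4/IL-13 than with IL-4/IL-13. The difference was -5.96 ± 0.16 on the log2 scale (limma adjusted p = 1.83e-09). For Il12b the response was 6.97 ± 0.10 with IFN gamma/LPS and 1.06 ± 0.10 with LPS on IL-4/IL-13, a difference of -5.92 ± 0.14 (limma adjusted p = 1.02e-09). Retnla differed by -5.70 ± 0.26, with untreated and IFN gamma/LPS arrays both near the bottom of its range. Dnase1l3, a secreted deoxyribonuclease, responded by 4.38 ± 0.11 and by -1.14 ± 0.11. The remaining genes among the 8 most negative differences were Ppargc1b (-4.08 ± 0.16), Apol7c (-3.96 ± 0.25), Socs1 (-3.92 ± 0.17) and Tcf7l2, a Wnt pathway transcription factor (-3.83 ± 0.13). Il6, although raised in both, also responded less on IL-4/IL-13, at 6.22 ± 0.14 against 8.89 ± 0.14, a difference of -2.67 ± 0.20 (limma adjusted p = 2e-06).

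In the opposite direction, Il19 had the largest positive difference. It read 5.20 and 5.61 in untreated cells, 6.17 and 6.07 with IFN gamma/LPS, 5.64 and 5.66 with IL-4/IL-13 and 10.37 and 10.24 with LPS/IL-4/IL-13. Only the last pair of arrays stood high, and the difference was 3.94 ± 0.19 on the log2 scale (limma adjusted p = 1.05e-07). Gab1, a docking adaptor of receptor kinases, responded by -1.66 ± 0.09 with IFN gamma/LPS and by 2.19 ± 0.09 with LPS on IL-4/IL-13, in opposite directions. Gadd45a, a stress gene that slows the cell cycle, responded by -0.19 ± 0.14 and 3.64 ± 0.14, and the zinc finger gene Zfp459 by 0.17 ± 0.14 and 3.91 ± 0.14. Stk17b (3.68 ± 0.19), Il21r (3.40 ± 0.18), Lhfpl2 (3.37 ± 0.16) and the cholesterol exporter gene Abca1 (3.09 ± 0.11) made up the 8. Abca1 read 10.05 and 10.08 with IL-4/IL-13 and 9.84 and 9.71 with LPS added (-0.29 ± 0.08), a small fall that was not called without the second IL-4/IL-13 array or after median centring, against 11.32 and 11.30 in untreated cells and 7.91 and 7.95 with IFN gamma/LPS.

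**Figure D5:**
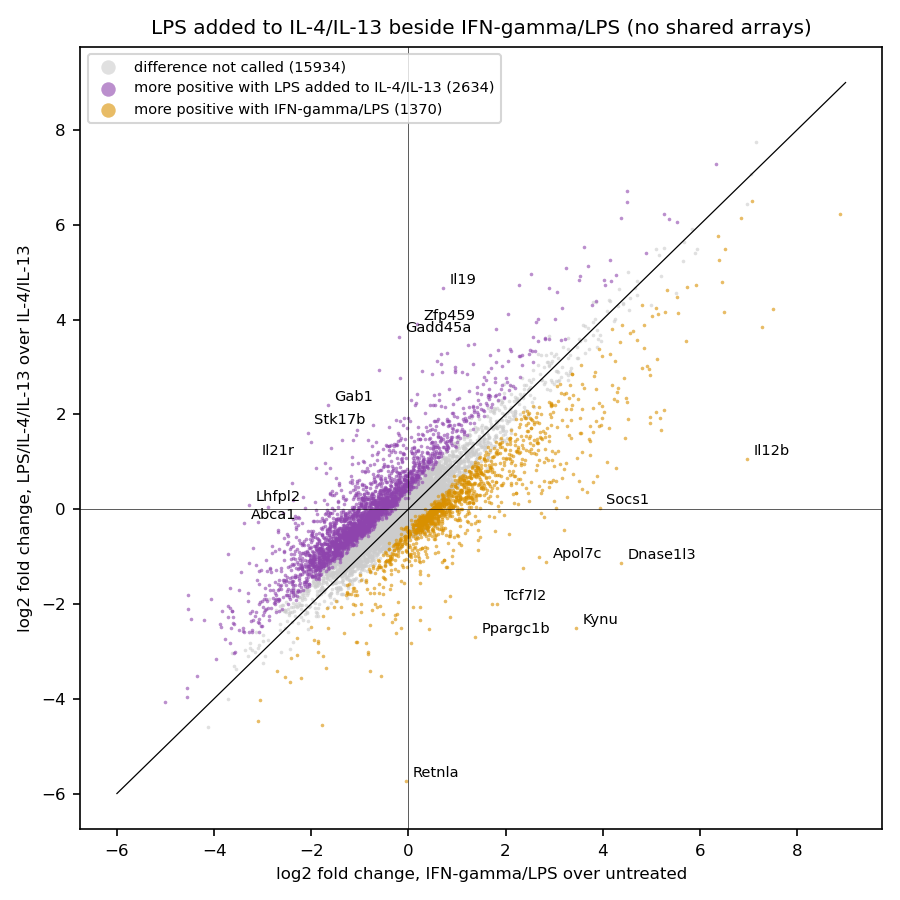
Log2 change of each gene with LPS added to IL-4/IL-13 (vertical) against its log2 change with IFN gamma/LPS over untreated cells (horizontal), with the line of equal response. Purple points (2634) had a more positive response on IL-4/IL-13 and orange points (1370) a more positive response with IFN gamma/LPS, and the 8 largest differences in each direction are named.

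Markers of 9 other cell types were followed as a check on the cultures. Their counts are read beside the 14.1% and 22.6% of all genes called higher and lower. None of 9 measured T and NK cell genes and none of 3 erythroid genes passed the test (limma, with 2 and 0 at an unadjusted p under 0.05). Hdc, the histamine-forming enzyme of mast cells, changed by 3.30 ± 0.13, Ccr3, the eotaxin receptor of eosinophils, by 3.13 ± 0.13, and the stromal proteoglycan gene Dcn by 1.73 ± 0.10. They were the only called genes of 9 mast cell and basophil, 6 eosinophil and 12 fibroblast markers, and other settings called up to 4 fibroblast markers. Of 11 dendritic cell markers 5 rose, or 45.5%, a larger share than of all genes, among them Fscn1 (2.04 ± 0.13) and Clec9a (1.92 ± 0.14). The mean log2 level of that list was 5.953 and 6.041 with IL-4/IL-13 and 6.531 and 6.632 with LPS added. The defining dendritic genes Zbtb46 and Flt3 did not pass, at -0.06 ± 0.12 and -0.23 ± 0.16, and the list moved in the same direction as the costimulatory genes Cd40 and Cd86. Its part in that result was not tested. Of 13 neutrophil markers 4 rose (30.8%, also a larger share than of all genes), 1 of them at least 2-fold, and 2 fell (15.4%). The count higher was 2 without the second IL-4/IL-13 array or without either LPS/IL-4/IL-13 array, where Mmp8 and Cxcr2 lost their calls. The granule genes Elane (-0.23 ± 0.11) and Ltf (-0.18 ± 0.13) did not pass. Of 7 osteoclast markers 1 rose and 2 fell, and of 7 B cell markers 1 fell, Blnk at -0.34 ± 0.11, a call that was lost in 9 other settings, among them without either IL-4/IL-13 array.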

How the data were processed

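RNA of 8 samples was hybridised to Affymetrix MoGene 1.0 ST arrays, 1 sample an array. The authors' deposited value table holds log2 values, a scale read from the values (1.46 to 13.71, array medians 6.12 to 6.20), although the labels name the column a MAS5 signal. How the arrays were corrected for background and scaled is not given in the sources used here, and per the labels' protocols a 3′ IVT kit was used for labelling. The number of arrays limits the precision. Of 35556 probe sets, 21789 carried 1 gene symbol in the platform annotation, 1621 several and 12146 none. Entrez identifiers of 21698 were found in the RefSeq table of GRCm38.p6. The brightest probe set over 8 arrays stood for each of 19938 genes. Of the 28 function lists and 9 marker lists, which held 608 genes, 551 genes were measured.

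The 4 groups, taken from the sample labels, were fitted in a single model with limma 3.58.1 in R 4.3.3 (eBayes with a mean-variance trend, 4 residual and 7.55 prior degrees of freedom). P-values were adjusted by Benjamini-Hochberg over 19938 genes and called under 0.05. The fit was tested on simulated data. Alternatives were other scalings, variance models, filters, samples and adjustments, and leaving out each array.

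The comparison, lists and tests were chosen with earlier results of these data known. The text names the 15 highest and 15 lowest called genes without overlap (predicted genes and small RNAs not counted), 22 known activation markers, up to 5 called members a list in each direction and up to 3 that did not pass, every member of 3 lists (LPS receptor, IL-4/IL-13 signalling, STAT6 targets) where useful, and the 8 largest differences each way. Other list members and microRNA genes were chosen after their values were seen.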

Additional observations from a re-analysis of the deposited data

Results flagged for a closer look

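The response to LPS in IL-4/IL-13-treated cells differed from the IFN gamma/LPS response of untreated cells, by the test of the difference itself (limma), and the 4 largest differences in each direction are given here. The difference in log2 change was 3.94 for Il19, 3.85 for Gab1, 3.83 for Gadd45a and 3.74 for Zfp459, and it was -5.96 for Kynu, -5.92 for Il12b, -5.70 for Retnla and -5.52 for Dnase1l3. These 8 kept their call under all 16 alternatives in which the difference was fitted. Probe sets outside the comparisons were fitted too, with p-values adjusted over all probe sets. Under that adjustment 2462 of the 19938 named genes were called higher and 4054 lower. Of the 1621 probe sets with several gene symbols, 123 were called higher and 359 lower with LPS added to IL-4/IL-13. These were called higher less often than named genes and lower about as often. Of the 12146 with no symbol, 821 were called higher and 1307 lower, both less often than named genes. With 2 arrays a group, no single array could be tested as standing apart.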

How the results depend on the processing

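The counts of genes raised and lowered by LPS on IL-4/IL-13, 2815 and 4504, were 3327 and 4344 after quantile normalization, 3346 and 3963 after median centring, 2540 and 4158 with only the 4 arrays compared, and 1066 and 1162 for changes of at least 2-fold. Leaving out 1 array at a time gave 2397 to 2843 higher and 3718 to 4522 lower. For the difference from the IFN gamma/LPS response the counts of 2634 and 1370 became 1573 to 3394 and 905 to 1585 with 1 array left out, 893 lower when p-values were adjusted over all probe sets, and 667 and 407 at 2-fold or more. Deviations of same-numbered arrays from their group means correlated at -0.36 to 0.22 between groups. With 2 arrays a group these values cannot show whether arrays were paired or shared a batch. With the replicate number as a block (the replicate block) the counts were 2818 and 4503, and 2609 and 1362 for the difference. Of 408 genes followed singly, 310 were called, and 17 alternatives other than the 2-fold rule were fitted. The filter of dim genes left out some of the 408, which were not tested under it. Of the 310, 292 kept their call under every alternative that held the gene, while 18 lost it in at least 1. A further 25 gained a call in at least 1, and Pkm reversed, from a log2 change of 0.06 that was not called to -0.20 after quantile normalization. The cause was not tested. Without detection calls, no level marks a gene as absent. Of the 40% of genes with the lowest mean level, 255 were called higher and 330 lower. These are smaller shares than the 14.1% and 22.6% of all genes.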
